A study of Mus musculus with 96 samples.

Results

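The acute transcriptional response to clozapine in the brain was compared between 2 inbred mouse strains. The difference was taken on the 1.1ST arrays, 48 of the 96 arrays of the series, which hold 16 mice. For each mouse the forebrain, hindbrain and whole brain arrays were averaged to 1 value per transcript cluster, and the difference between clozapine and vehicle in NOD/ShiLtJ minus the same difference in C57BL/6J is called the interaction. A positive interaction means a higher value after clozapine, relative to vehicle, in NOD/ShiLtJ than in C57BL/6J. The 4 groups held 4 males each, 14 weeks old: C57BL/6J (B6) given vehicle (Veh), B6 given clozapine (Cloz), NOD/ShiLtJ (NOD) given vehicle and NOD given clozapine. None of the groups carried a transgene or a deletion by their labels. Clozapine was injected once into the peritoneum at 4 mg/kg, the vehicle was saline, and brains were taken 3 hours later. By the study's methods the clozapine solution also held acetic acid neutralized with NaOH, and the vehicle is named as 0.9% saline. If the vehicle lacked that solvent, drug and solvent cannot be told apart. Forebrain and hindbrain came from one hemisphere, whole brain was the intact other hemisphere, and the cerebellum had been removed. The study used one dose and one time, and each region is bulk tissue, so fewer cells of a type and less RNA per cell cannot be told apart.

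Clozapine is an atypical antipsychotic that blocks receptors of dopamine, serotonin, histamine, acetylcholine and noradrenaline. Drugs of this kind can raise blood corticosterone in rodents, and corticosterone acts through the glucocorticoid receptor, a transcription factor that binds DNA at palindromes whose arms read AGAACA or close to it. C57BL/6J is the common reference strain, and NOD/ShiLtJ is an inbred strain that develops autoimmune diabetes, mostly in females. Values below are log2 intensities or differences of them, each with the standard error (SE) of a limma fit to 1 value per mouse. A transcript is called at a false discovery rate (FDR) below 0.05, computed over 28310 transcript clusters by the formula of the study's methods. The replicates of a group are different animals, and 4 mice per group set the precision.

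The arrays of a format were normalized together. Array medians lay between 6.28 and 6.61, the lowest being the forebrain array of DD676 (NOD Cloz), which also had the lowest correlation with the other arrays of its region and strain, 0.9937 against 0.9953 to 0.9985 for the other arrays. The region labels held: the mean of 11 telencephalon markers was higher in forebrain than in hindbrain in 16 of 16 mice, by 1.19 to 2.47, and the mean of 12 hindbrain markers was lower in 16 of 16. Mice were killed between 60 and 210 minutes after noon. The median was 90 minutes in NOD Cloz and 155 in NOD Veh, and 105 in B6 Cloz and 150 in B6 Veh, so the hour of kill was earlier after clozapine in both strains. Litter size was 9, 11, 11 and 11 in NOD Cloz and 9, 9, 9 and 11 in NOD Veh. In B6 it was 8, 6, 6 and 6 in B6 Cloz and 8, 8, 6 and 6 in B6 Veh. Litter size thus went partly with treatment in NOD, and less so in B6. The batch of an array and the hemisphere are not in the labels used here. Where 4 values of a group are given, they stand in the order of the mouse numbers: BB685, BB701, BB702 and BB703 for B6 Cloz, BB686, BB687, BB707 and BB708 for B6 Veh, DD658, DD675, DD676 and DD678 for NOD Cloz, and DD656, DD657, DD659 and DD677 for NOD Veh.

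Transcripts were called between clozapine and vehicle mice in NOD and none in B6, but no transcript was called for the difference between the strains. In NOD, 101 clusters were higher after clozapine (0.357% of those tested) and 86 lower (0.304%), 187 in all (0.661%). In B6 the count was 0 (0%), with 562 clusters higher (1.99%) and 1052 lower (3.72%) at an unadjusted p under 0.05. The same unadjusted threshold was passed in NOD by 1745 higher (6.16%) and 2149 lower (7.59%). For the interaction the limma count was 0 (0%), the smallest FDR was 0.39, and 1155 clusters were higher in NOD (4.08%) and 884 lower (3.12%) at an unadjusted p under 0.05. With each array centred on its median these became 1685 and 604, so the share that was higher moved from 56.6% to 73.6%. A response called in one strain and not in the other is therefore not shown to differ between them. The median SE of an interaction was 0.0764, and its unadjusted 95% interval reached 0.161 to either side for the median cluster. That width is not the limit for a call: the interaction of Rnf125 was 0.79 and its FDR 0.39. Differences between the strains well above 0.161 could therefore go uncalled.

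**Figure D1:**
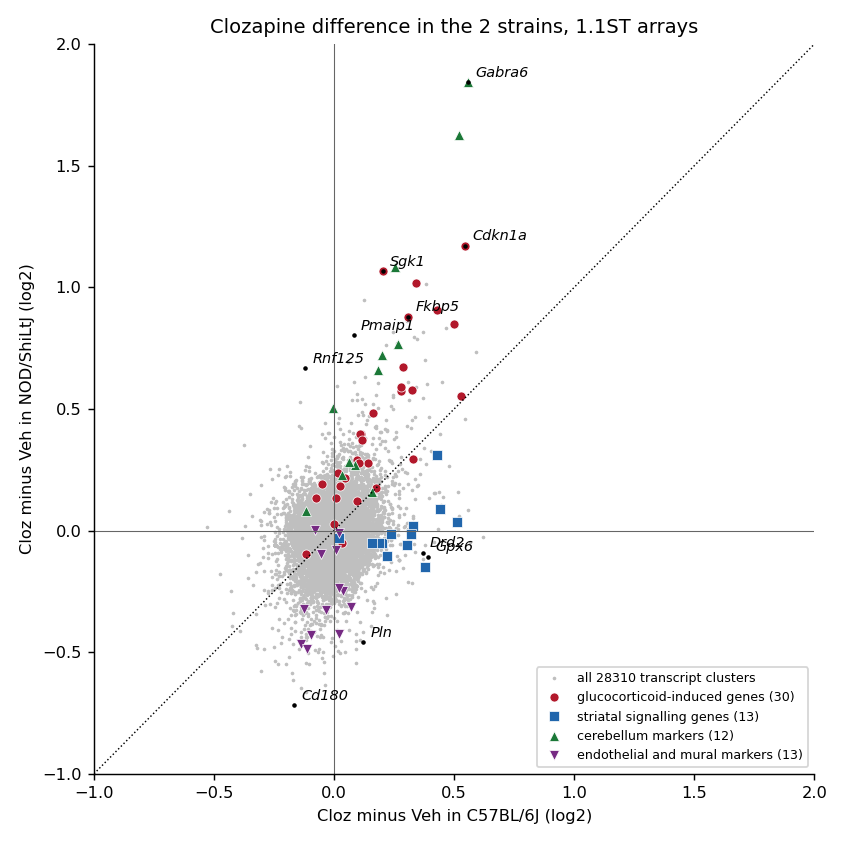
Log2 difference of clozapine minus vehicle in C57BL/6J (horizontal axis) and NOD/ShiLtJ (vertical axis), each from 4 mice per group, for all transcript clusters (grey) and the members of 4 gene lists (coloured); the dotted line marks equal responses. Sgk1 lies at 0.20 and 1.07, Drd2 at 0.37 and -0.09, and Cd180 at -0.17 and -0.72.

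The 187 clusters called in NOD mostly had the same sign in B6, with smaller differences. The strains share no mice, and 162 of the 187 (86.6%) had the same sign in B6, against 53.4% of all clusters. The B6 difference was the smaller one in size in 186 of the 187, and the median ratio of the B6 size to the NOD size was 0.253. These clusters were chosen for their size in NOD, so their larger size there is fixed by the choice. The 187 clusters with the smallest p in B6 showed the reverse: their median size was 0.19 in B6 and 0.055 in NOD, and 116 (62.0%) had the same sign in NOD. On the 1.0ST arrays, which measured the same RNA, the 2 shares were 84.0% and 67.4%, against 57.5% of all clusters there. With the hour of kill as a covariate they were 79.1% and 61.5%, against 52.1% of all clusters. Across all 28310 clusters, which are not independent replicates, the NOD and B6 differences had a Pearson r of 0.25. They come from different mice whose arrays were normalized together. The count in NOD moved with single mice and with covariates, and with the covariates the differences kept most of their size. It was 758 without DD675, the NOD Cloz mouse killed at 210 minutes after noon, 315 without BB685, 39 without DD659, 26 without DD676, 22 without DD658, 11 without DD656, 11 without DD678 and 9 without DD677. With the hour of kill as a covariate 2 clusters were called in NOD, Pmaip1 (log2 difference 0.76, FDR = 0.0267) and Rnf125 (0.71, FDR = 0.029). With litter size as a block the NOD count was 10. In NOD both the hour and litter size went partly with treatment. The median size of the 187 NOD differences was 0.363 without a covariate, 0.322 with the hour and 0.377 with litter size, and with the hour the NOD difference was 1.08 for Sgk1 (1.07 without it), 0.88 for Fkbp5 (0.88) and 1.09 for Cdkn1a (1.17).

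The 2 genes with the smallest interaction p were Rnf125 and Pmaip1, and both rose in NOD, with small differences in B6. Pmaip1 encodes Noxa, a protein of the BCL2 family that promotes cell death. It measured 6.54, 6.34, 6.65 and 6.80 in the 4 NOD Cloz mice and 5.86, 5.86, 5.61 and 5.80 in NOD Veh. In B6 it measured 5.84, 5.40, 5.63 and 5.62 after clozapine and 5.45, 5.63, 5.54 and 5.55 after vehicle. The NOD groups did not overlap and the B6 groups did. Pmaip1 rose by 0.80 in NOD (SE 0.09, FDR = 0.00303), a 1.74-fold increase, and the difference was 0.08 in B6 (FDR = 0.948), which gives an interaction of 0.72 (95% interval 0.44 to 1.00, FDR = 0.463). Rnf125 encodes a ubiquitin ligase that restrains antiviral RIG-I signalling. Its values were 6.99, 6.95, 7.24 and 7.09 in NOD Cloz, 6.29, 6.66, 6.38 and 6.27 in NOD Veh, 6.52, 6.20, 6.49 and 6.58 in B6 Cloz and 6.61, 6.62, 6.65 and 6.40 in B6 Veh. All 4 NOD Cloz mice lay above the other 12 mice. Rnf125 rose by 0.67 in NOD (FDR = 0.007), the difference was -0.12 in B6 (FDR = 0.906), and the interaction was 0.79 (95% interval 0.51 to 1.07, FDR = 0.39).

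Neither interaction passed the FDR with 1 value per mouse, but both did in models of single arrays. One fit used the 48 arrays with the mouse as a random block, and the correlation between arrays of a mouse was 0.0314. There the interaction of Pmaip1 had an FDR of 0.000539 and that of Rnf125 of 0.000631, and 0 other clusters were called. Strain and treatment are properties of the mouse, so the 3 arrays of a mouse add no animals. At so low a correlation that fit counts them as close to independent, so its FDRs do not come from more mice. On the 1.0ST arrays the interaction was 0.29 for Pmaip1 and 0.42 for Rnf125, smaller but of the same sign. That sign was part of a rule by which these genes were named. With any 1 mouse left out it stayed between 0.65 and 0.80 for Pmaip1 and between 0.71 and 0.88 for Rnf125, and without DD657 (NOD Veh), Rnf125 was called (FDR = 0.0426). One other cluster each was called without BB685, the zinc finger gene Zfp189 (0.75, FDR = 0.0121), and without BB701, Olfr655 (-0.54, FDR = 0.00676), both B6 Cloz mice.

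**Figure D2:**
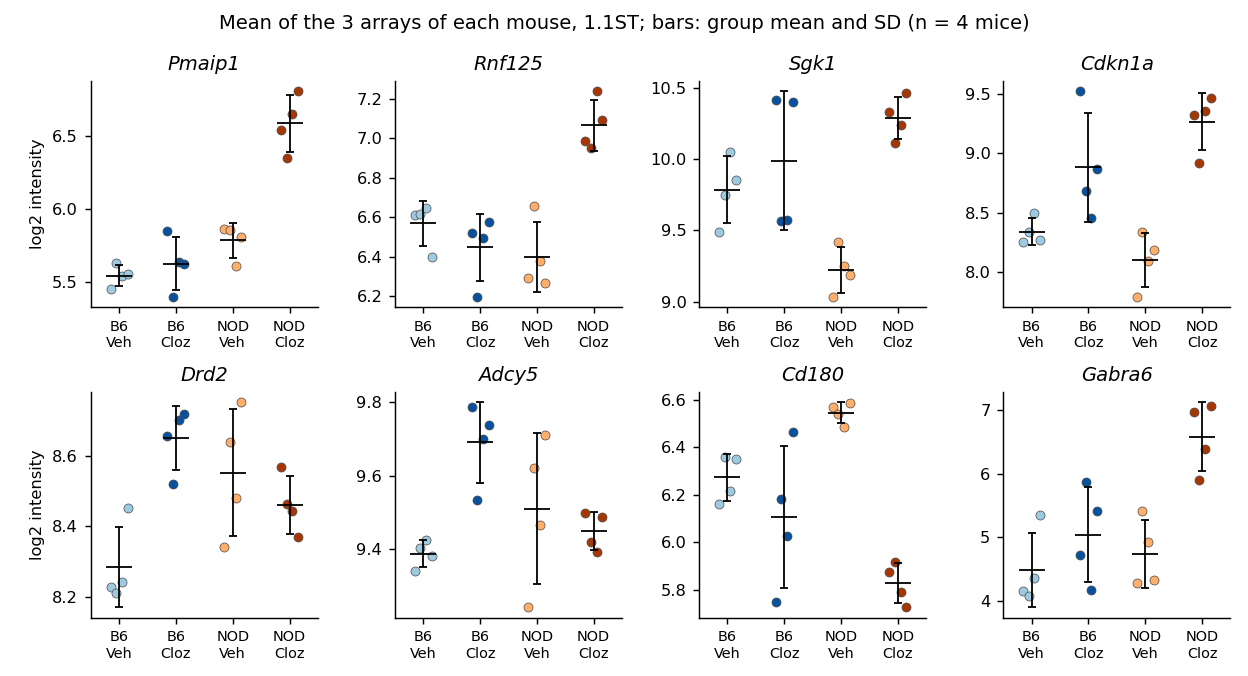
Log2 intensity (vertical axes, not starting at 0) of 8 genes, as the mean of the 3 arrays of each mouse on the 1.1ST format; points are mice, horizontal bars group means and error bars SD (n = 4 mice). Pmaip1 lies at 6.34 or above in NOD Cloz and at 5.86 or below in the other 3 groups, and Sgk1 in B6 Cloz splits into 2 mice near 10.4 and 2 at 9.57.

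Of the other genes with a positive interaction of the same sign in the 3 regions and on both array formats, the 8 with the smallest p had interactions from 0.24 to 0.53, each with an FDR of 0.463 or 0.581. Sap30, a subunit of the SIN3 histone deacetylase complex, was 7.35, 7.0, 7.36 and 7.15 in NOD Cloz against 6.39, 6.74, 6.69 and 6.58 in NOD Veh. It rose by 0.61 in NOD (FDR = 0.007) and differed by 0.08 in B6, an interaction of 0.53 (SE 0.12) that was 0.42 on the 1.0ST arrays. Fam107b rose by 0.32 in NOD (FDR = 0.023), as did Sycp1, a protein of the meiotic synaptonemal complex, by 0.21 (FDR = 0.0271). The interaction of Fam107b was 0.117 in forebrain, 0.712 in hindbrain and 0.281 in whole brain. For Sycp1 it was 0.121, 0.57 and 0.035 in the same order. In the model of single arrays with surrogate variables, estimated from the arrays, the interactions were 0.147 for Fam107b and 0.08 for Sycp1. The mean level of Sycp1 was low, 3.33, where the lowest value on the 1.1ST arrays was 2.54. Tpbpa (0.26), Igll1 (0.27), 5730408K05Rik (0.37), Cyp2d40 (0.34) and Olfr535 (0.28) were called in neither strain. Their differences in B6 were all below 0, from -0.21 to -0.13, and on the 1.0ST arrays the interactions of Igll1 and Tpbpa were 0.02 and 0.05. The mean level of Tpbpa was low too, 3.51. Among genes called in NOD, Dmrta1, a transcription factor with a DM domain, rose by 0.48 (FDR = 0.007) against 0.15 in B6, and Smim3 by 0.61 (FDR = 0.007) against 0.18.

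**Figure D3:**
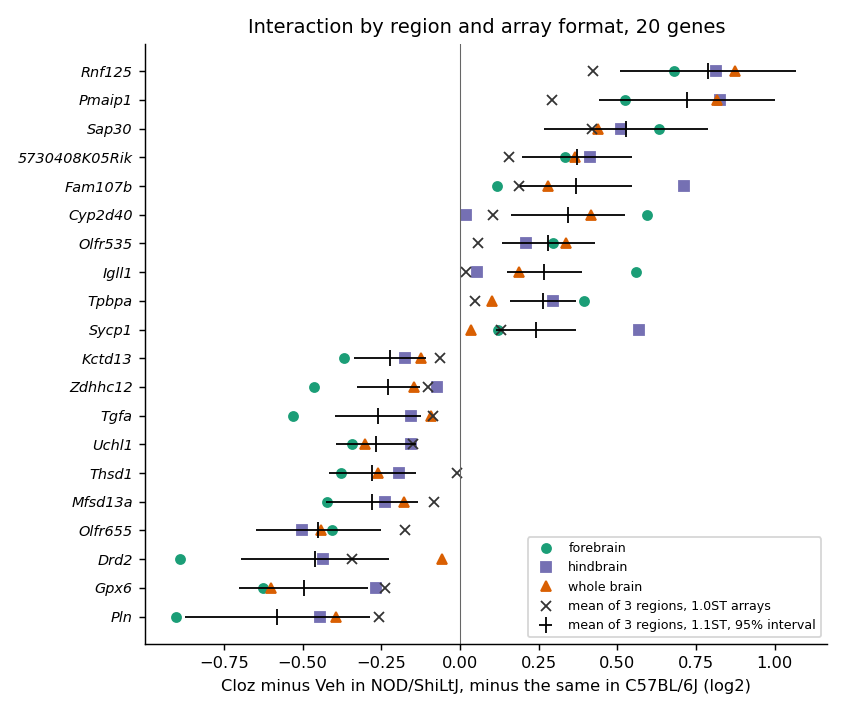
Interaction (horizontal axis, log2) of the 10 genes in each direction with the smallest p among those of one sign in the 3 regions and on both formats; black marks are the 1.1ST mean of the 3 regions with its 95% interval over 4 mice per group, coloured symbols the single regions and crosses the 1.0ST arrays. The crosses lie nearer 0 than the black marks for all 20 genes, and Drd2 runs from -0.89 in forebrain to -0.06 in whole brain.

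Genes with a negative interaction included Drd2, the dopamine D2 receptor, which is the main target of antipsychotic drugs. Drd2 measured 8.66, 8.52, 8.71 and 8.72 in B6 Cloz and 8.23, 8.21, 8.24 and 8.45 in B6 Veh, without overlap, and 8.57, 8.46, 8.44 and 8.37 in NOD Cloz and 8.34, 8.64, 8.48 and 8.76 in NOD Veh, with overlap. The difference was 0.37 in B6 (FDR = 0.743) and -0.09 in NOD (FDR = 0.523), an interaction of -0.46 (95% interval -0.69 to -0.23, FDR = 0.581). It was -0.89 in forebrain, -0.43 in hindbrain and -0.06 in whole brain. Gpx6, a glutathione peroxidase, was 5.36, 5.03, 5.13 and 5.19 in B6 Cloz and 4.80, 4.74, 4.86 and 4.75 in B6 Veh, while all 8 NOD mice lay between 4.42 and 4.74. Its interaction was -0.50 (SE 0.10, FDR = 0.463), and it had the smallest p for clozapine in B6 (log2 difference 0.39, FDR = 0.743). Pln, phospholamban, the inhibitor of the sarcoplasmic calcium pump, fell by 0.46 in NOD (FDR = 0.0368) and differed by 0.12 in B6, an interaction of -0.58 (SE 0.14). The other 7 of the 10 genes with a negative interaction and the smallest p were Olfr655 (-0.45), Mfsd13a (-0.28), Thsd1 (-0.28), Uchl1, a ubiquitin hydrolase abundant in neurons (-0.27), Tgfa, a ligand of the EGF receptor (-0.26), Zdhhc12 (-0.23) and Kctd13 (-0.22). Each of these had a positive difference in B6 and a negative one in NOD, and of them Thsd1 was called in NOD (difference -0.24, FDR = 0.0249), with an interaction of -0.01 on the 1.0ST arrays.

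Genes that glucocorticoids induce were the group in which the larger response of NOD was most widespread among the 13 response lists. Of 30 measured members, 12 rose in NOD at the FDR (0.357% of all clusters) and 0 in B6, and 22 were higher in NOD (6.16%) and 8 in B6 (1.99%) at an unadjusted p under 0.05. For the interaction, 10 of the 30 were higher in NOD at an unadjusted p under 0.05 and 0 lower, against 4.08% and 3.12% of all clusters, and 27 had an interaction above 0. The median difference was 0.13 in B6 and 0.33 in NOD, and the median interaction 0.23, against 0.015 over all clusters. All 4 Cloz mice lay above all 4 Veh mice for 18 members in NOD (4.25% of all clusters) and 2 in B6 (0.858%). The count of 10 became 5 without DD656, and 6 without BB701, BB702 or DD678. The list was not independent of earlier results of these data, and without the 5 members that those results named, 8 of 25 passed, with a median interaction of 0.21.

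The members of this list with the largest interactions are regulators and signalling genes. Corticosterone is not in the data used here, and the part of the glucocorticoid receptor in these differences was not tested. Sgk1, a kinase that regulates ion channels and a direct target of the receptor, was 10.33, 10.11, 10.24 and 10.47 in NOD Cloz against 9.03, 9.42, 9.25 and 9.19 in NOD Veh, and 10.42, 9.57, 9.57 and 10.40 in B6 Cloz against 9.49, 9.75, 10.05 and 9.86 in B6 Veh. The B6 Cloz mice BB685 and BB703 lay above all B6 Veh mice, and BB701 and BB702 lay within their range. Sgk1 rose by 1.07 in NOD (2.09-fold, SE 0.17, FDR = 0.0165) and differed by 0.20 in B6 (FDR = 0.921), an interaction of 0.86 (95% interval 0.34 to 1.39, FDR = 0.581) that was 0.86 on the 1.0ST arrays. Nfkbia, the inhibitor of NF-kappaB, rose by 1.02 in NOD (FDR = 0.0249) and differed by 0.34 in B6. Cdkn1a, an inhibitor of cyclin-dependent kinases, rose by 1.17 (FDR = 0.00997) against 0.55 in B6, an interaction of 0.62 (SE 0.25). Fkbp5, a co-chaperone that lowers the affinity of the receptor for its hormone, measured 8.89, 9.02, 8.93 and 8.93 in NOD Cloz and 7.82, 8.39, 8.03 and 8.01 in NOD Veh. In B6 Cloz it was 9.06, 8.29, 8.29 and 8.13, with BB685 far above the other 3, and in B6 Veh 8.10, 8.08, 8.39 and 7.98. The interaction of Fkbp5 was 0.57 (SE 0.22, FDR = 0.581).

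Further members differed less. The interaction was 0.32 for Errfi1, an inhibitor of the EGF receptor, 0.31 for the kinase Map3k6, 0.29 for Klf15, a transcription factor of fasting metabolism, 0.29 for Tsc22d3, the leucine zipper protein GILZ, and 0.17 for Fam107a, a stress-induced actin-binding protein, and these 5 rose in NOD. For Bcl6, a transcriptional repressor, it was 0.24, with a difference of 0.19 in NOD that was not called. Arrdc2, Per1 and Pdk4 rose in NOD by 0.85, 0.58 and 0.57, and their interactions of 0.35, 0.25 and 0.29 did not pass the unadjusted threshold. Other targets had differences of close size in both strains, none of them called: the difference was 0.53 in B6 and 0.55 in NOD for Dusp1, a phosphatase of MAP kinases, 0.18 and 0.17 for Mt1, a metallothionein, and 0.33 and 0.29 for the lipase Pnpla2. The SE of the Dusp1 interaction was 0.30, so an interaction as large as that of Fkbp5 could not be told from 0 there.

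As a mean over the 30 members, NOD Cloz mice lay at 8.25, 8.20, 8.20 and 8.28 and NOD Veh mice at 7.70, 7.95, 7.79 and 7.78, without overlap, and B6 Cloz mice at 8.35, 8.01, 7.98 and 8.19 and B6 Veh mice at 7.86, 7.93, 8.09 and 7.93, with overlap. The vehicle mean was 7.80 ± 0.10 in NOD and 7.95 ± 0.10 in B6, and the clozapine mean 8.23 ± 0.04 in NOD and 8.13 ± 0.17 in B6 (SD, n = 4). The spread was widest in B6 Cloz. The median interaction of the list was 0.14 in forebrain, 0.29 in hindbrain and 0.23 in whole brain, 0.22 on the 1.0ST arrays and 0.24 with the hour of kill as a covariate, where again 10 members passed.

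**Figure D4:**
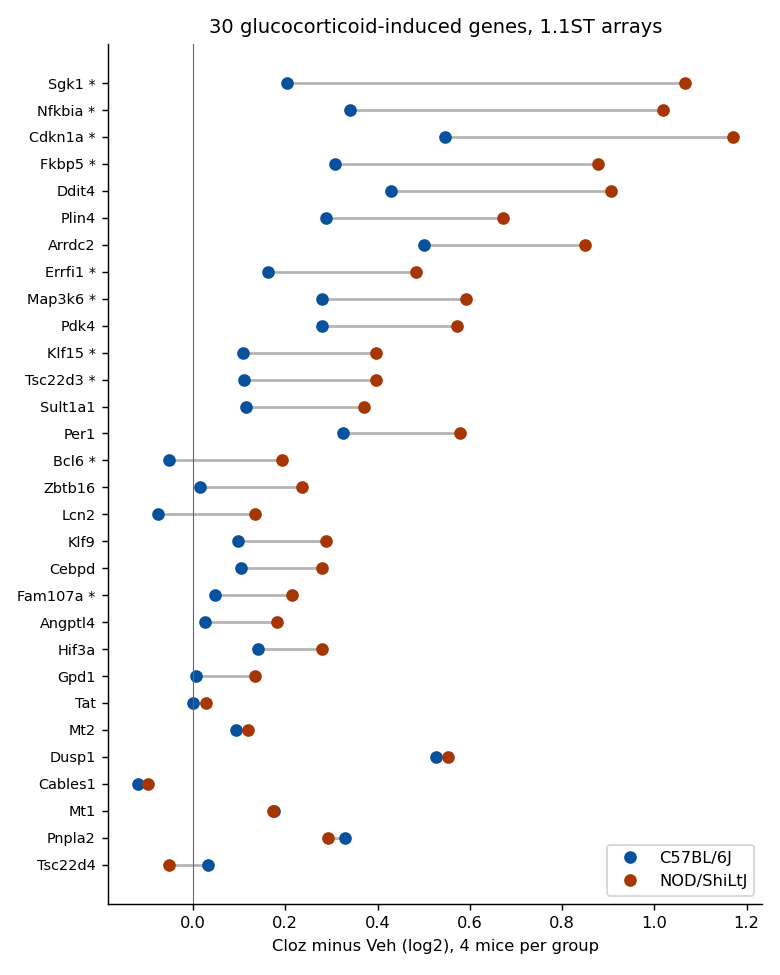
Log2 difference of clozapine minus vehicle (horizontal axis) in C57BL/6J and NOD/ShiLtJ, 4 mice per group, for 30 glucocorticoid-induced genes ordered by the interaction; an asterisk marks an unadjusted p under 0.05 for the interaction. NOD lies to the right of B6 for 27 genes, from 1.07 against 0.20 for Sgk1 at the top.

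The promoters of 4 members hold a palindrome of the kind the glucocorticoid receptor binds, and their letters are given below. The 250 bases before the annotated starts of 27025 genes in RefSeq (GRCm38.p6) were searched for GNACANNNTGTNC, which reads the same on both strands. A match stood in 127 of 32851 such promoters (0.387%), those of 119 genes (0.44%). Of the 24 members with a promoter in the table, 4 held a match: Sgk1, Map3k6 and Fam107a, which rose in NOD, and Mt1, which was called in neither strain. The members were listed as genes that glucocorticoids induce, so this count is not independent of that choice. One arm alone, TGTTCT or AGAACA, stood in promoters of 18.2% of all genes. Of the 24 members 5 held an arm (Sgk1, Fam107a, Bcl6, Tsc22d3 and Sult1a1), a share close to that, and it overlaps the longer motif in some of them. A match is a description of the letters and not a binding site. The windows run 5′ to 3′ up to the base before the start, with the palindrome in capitals.
Sgk1 (chr10:21993640-21993889, + strand): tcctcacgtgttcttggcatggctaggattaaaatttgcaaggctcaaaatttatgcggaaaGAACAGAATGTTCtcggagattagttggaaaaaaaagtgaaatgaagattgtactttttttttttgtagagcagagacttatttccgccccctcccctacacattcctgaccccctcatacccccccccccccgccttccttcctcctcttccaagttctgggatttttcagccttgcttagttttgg
Map3k6 (chr4:133240568-133240817, + strand): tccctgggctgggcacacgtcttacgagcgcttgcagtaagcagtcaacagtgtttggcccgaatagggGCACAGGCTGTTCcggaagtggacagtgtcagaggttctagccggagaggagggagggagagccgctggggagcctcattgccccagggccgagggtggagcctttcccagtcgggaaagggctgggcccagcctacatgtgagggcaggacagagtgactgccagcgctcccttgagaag
Fam107a (chr14:8309780-8310029, - strand): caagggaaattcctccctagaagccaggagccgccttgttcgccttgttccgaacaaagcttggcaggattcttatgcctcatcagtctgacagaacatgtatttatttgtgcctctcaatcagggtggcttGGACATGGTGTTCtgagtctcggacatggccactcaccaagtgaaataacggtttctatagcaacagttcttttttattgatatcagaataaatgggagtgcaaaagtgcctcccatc
Mt1 (chr8:94178839-94179088, + strand): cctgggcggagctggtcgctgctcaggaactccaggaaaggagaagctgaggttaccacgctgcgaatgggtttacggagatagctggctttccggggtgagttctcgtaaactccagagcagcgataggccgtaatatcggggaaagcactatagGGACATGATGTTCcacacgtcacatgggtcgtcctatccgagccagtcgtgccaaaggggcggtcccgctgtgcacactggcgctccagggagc

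Targets of the tumor suppressor p53 held some members with a larger NOD value. Of 26 measured targets, 4 rose in NOD (0.357% of all clusters) and 0 in B6, and 4 had an interaction above 0 at an unadjusted p under 0.05 (4.08% of all clusters), with a list median of 0.05. On the 1.0ST arrays 8 of the 26 passed (2.64% of all clusters there), with a median of 0.06. The 4 on the 1.1ST arrays were Pmaip1, Cdkn1a, Gadd45a, which acts in growth arrest and DNA repair (0.21, SE 0.09), and Trp53inp1, a regulator of autophagy and cell death. Trp53inp1 was 8.91, 8.57, 8.92 and 8.83 in NOD Cloz and 7.99, 8.06, 8.15 and 7.95 in NOD Veh, and 8.89, 8.25, 8.24 and 8.46 in B6 Cloz and 8.24, 8.12, 8.20 and 8.23 in B6 Veh. All clozapine mice lay above the vehicle mice of their strain, BB701 and BB702 by 0.01 only, and BB685 was highest in B6. It rose by 0.77 in NOD (FDR = 0.007) against 0.26 in B6, an interaction of 0.51 (SE 0.16, FDR = 0.581). Established targets such as Mdm2 (0.10 in NOD, 0.04 in B6), Ccng1 (0.14 and 0.04) and Bbc3 (-0.003 and -0.07) were called in neither strain. Cdkn1a stands in both lists. The list of p53 targets was not independent of earlier results of these data either, which had named Cdkn1a and Trp53inp1.

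Genes of striatal signalling ran the other way, higher after clozapine in B6 and near 0 in NOD. Medium spiny neurons of the striatum carry dopamine receptors and signal through the G protein Gnal, the adenylyl cyclase Adcy5 and the phosphodiesterases Pde10a and Pde1b. Of 13 measured genes, 7 had an interaction below 0 at an unadjusted p under 0.05 (3.12% of all clusters) and 13 were below 0, with a median of -0.31. The median difference was 0.30 in B6 and -0.03 in NOD, and 11 members were higher in B6 at an unadjusted p under 0.05 (1.99% of all clusters), but none was called at the FDR in either strain. The median interaction on the 1.0ST arrays was -0.20 and 5 passed (1.49% of all clusters there). Adcy5 was 9.79, 9.54, 9.70 and 9.74 in B6 Cloz and 9.34, 9.40, 9.43 and 9.38 in B6 Veh, without overlap, and 9.50, 9.42, 9.39 and 9.49 in NOD Cloz and 9.24, 9.62, 9.46 and 9.71 in NOD Veh. Its interaction was -0.36 (SE 0.11, FDR = 0.581). The interaction was -0.53 (SE 0.17) for Rarb, a retinoic acid receptor, -0.33 for Rasd2, the small GTPase Rhes, -0.33 for Bcl11b and -0.21 for Foxp1, both transcription factors of these neurons, -0.25 for Gnal and -0.24 for Pde1b. Ppp1r1b, the dopamine-regulated phosphatase inhibitor DARPP-32, differed by 0.43 in B6 and 0.31 in NOD.

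The values of the striatal genes were largest in forebrain. Their median interaction was -0.54 in forebrain, -0.37 in hindbrain and 0.03 in whole brain, the other hemisphere of the same mice, a difference between regions that was not tested. As a mean over the list, B6 Cloz mice lay at 9.70, 9.42, 9.61 and 9.58, B6 Veh at 9.35, 9.29, 9.10 and 9.41, NOD Cloz at 9.43, 9.32, 9.37 and 9.32 and NOD Veh at 9.05, 9.50, 9.38 and 9.54. The lowest NOD Veh mouse was DD656, and without it 11 members passed, whereas without DD677 (NOD Veh) 3 did. Markers of the telencephalon, from a separate list of 11, had a median interaction of -0.16, with 10 below 0 and 1 past the unadjusted threshold (Bcl11b, which both lists hold). Over the mice their mean level ran from 7.73 to 8.07 in B6 Cloz, 7.67 to 7.90 in B6 Veh, 7.56 to 7.71 in NOD Cloz and 7.62 to 7.83 in NOD Veh (log2 intensity). Their part in the striatal result was not tested.

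Of 21 measured receptors that clozapine binds, Drd2 and Drd3 passed the unadjusted threshold for the interaction, both below 0 (3.12% of all clusters were below 0 at that threshold), and none was called. In all 14 of the 21 lay below 0, with a median of -0.06 (-0.11 in forebrain, -0.18 in hindbrain and 0.04 in whole brain), and on the 1.0ST arrays 3 passed below 0 (1.49%). Drd3, the D3 receptor, differed by 0.08 in B6 and -0.27 in NOD, an interaction of -0.35 (SE 0.13). Drd1 had an interaction of -0.46 (SE 0.29), Chrm4, a muscarinic receptor of the striatum, of -0.18, and Htr6, a serotonin receptor also found there, of -0.23. The other 16 ranged from -0.19 (SE 0.10) for Htr1a, an inhibitory serotonin receptor, to 0.10 (SE 0.13) for Chrm5, and Htr2a, the serotonin receptor that atypical antipsychotics block, was -0.11 (SE 0.13). The count of receptors below 0 at the unadjusted threshold was 5 without DD656 and 4 without DD675.

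**Figure D5:**
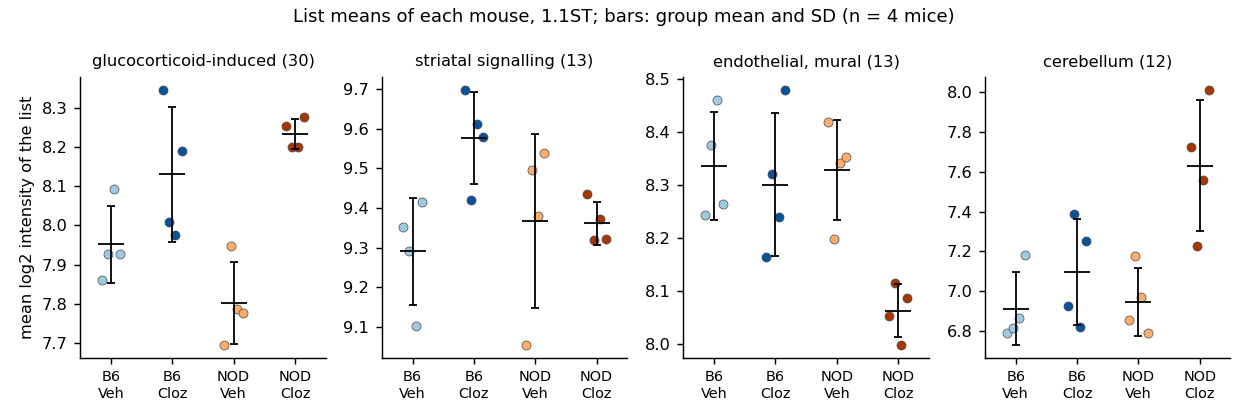
Mean log2 intensity over the measured members of 4 gene lists (vertical axes, not starting at 0) for each mouse on the 1.1ST arrays; points are mice, horizontal bars group means and error bars SD (n = 4 mice). The 4 NOD Cloz mice lie above all NOD Veh mice for the glucocorticoid-induced and cerebellum lists and below them for the endothelial and mural list.

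Markers of blood vessel cells were lower after clozapine in NOD and near 0 in B6. The list of endothelial and mural cells has 13 measured genes, and 9 of them were lower in NOD at an unadjusted p under 0.05, against 7.59% of all clusters, and 0 in B6. Slco1a4, an organic anion transporter of the blood-brain barrier, fell by 0.47 in NOD (FDR = 0.0271), and Kdr, the VEGF receptor, by 0.49 (FDR = 0.0366). For the interaction 6 markers were below 0 at that threshold (3.12% of all clusters) and none above, with a median of -0.28 (-0.35 in forebrain, -0.26 in hindbrain, -0.18 in whole brain and -0.16 on the 1.0ST arrays). They were Pdgfrb, the PDGF receptor of pericytes (-0.38), Kdr (-0.38), Slco1a4 (-0.33), Flt1, another VEGF receptor (-0.30), Cdh5, the cadherin of endothelial junctions (-0.28), and Vtn, vitronectin (-0.26). Pecam1 (-0.03, SE 0.07) and Kcnj8 (-0.04, SE 0.09), which mark the same cells, lay near 0. The list mean was 8.05, 8.12, 8.00 and 8.09 in NOD Cloz and 8.42, 8.20, 8.34 and 8.35 in NOD Veh, without overlap, and 9 of the 13 members were lower without overlap too (5.12% of all clusters were lower without overlap). Without BB703 (B6 Cloz) 3 markers passed for the interaction.

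Cd180, a Toll-like receptor homologue of microglia and B cells, had the largest fall in NOD among the genes called there. It was 5.88, 5.92, 5.79 and 5.73 in NOD Cloz and 6.57, 6.54, 6.49 and 6.59 in NOD Veh, without overlap, and 5.75, 6.18, 6.03 and 6.46 in B6 Cloz and 6.16, 6.36, 6.22 and 6.35 in B6 Veh, with overlap. Cd180 fell by 0.72 in NOD (FDR = 0.007) and differed by -0.17 in B6, an interaction of -0.55 (SE 0.14, FDR = 0.581), which was -0.46 on the 1.0ST arrays. Of 13 measured microglial markers, 2 had an interaction below 0 at an unadjusted p under 0.05 (3.12% of all clusters). The list median was -0.04, so most did not share the size of Cd180. Gpr84, a receptor of medium-chain fatty acids on microglia, fell in NOD by 0.46 (FDR = 0.0165) and differed by -0.22 in B6, where the groups did not overlap either.

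The largest positive interactions were in genes of the cerebellum, which had been removed at dissection. Gabra6, a GABA-A receptor subunit of cerebellar granule cells, was 6.97, 5.90, 6.38 and 7.07 in NOD Cloz, 4.28, 5.41, 4.92 and 4.33 in NOD Veh, 4.72, 5.87, 4.17 and 5.42 in B6 Cloz and 4.16, 4.08, 4.36 and 5.35 in B6 Veh. NOD Cloz mice lay above all others, and the spread within each group was over 1 log2 unit. Its interaction was 1.29 (SE 0.52), that of Cbln3, a granule cell secreted protein, 1.1 (SE 0.47), of Ppp1r17, a phosphatase inhibitor of Purkinje cells, 0.83, and of Cnpy1 0.82. These 4 and Sgk1 were the 5 largest above 0 among genes past the unadjusted threshold. Of 12 measured cerebellum markers, 5 passed (4.08% of all clusters) and all 12 were above 0, with a median of 0.49, or 0.12 in forebrain, 1.01 in hindbrain and 0.20 in whole brain. The list mean was 7.73, 7.23, 7.56 and 8.01 in NOD Cloz, 6.85, 7.18, 6.97 and 6.79 in NOD Veh, 6.92, 7.39, 6.82 and 7.25 in B6 Cloz and 6.79, 6.81, 6.87 and 7.18 in B6 Veh. The count of 5 was 9 without DD675, 8 without BB701, 3 without BB685 or DD677, and 2 without BB702, BB708 or DD678. With 5 surrogate variables in the model of single arrays, the interactions of Gabra6 and Cbln3 turned to -0.24 and -0.23 and the list median to -0.07. Of the markers, 7 passed on the 1.0ST arrays (2.64% of all clusters there), with a median of 0.31. The part of residual cerebellar tissue in these and in the other results was not tested.

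Few markers of the other cell types passed the unadjusted threshold as a mean of the regions, where 4.08% of all clusters passed above 0 and 3.12% below, but those of choroid plexus and olfactory bulb differed within regions. Of 12 measured astrocyte markers 1 was below 0 at an unadjusted p under 0.05, of 12 oligodendrocyte markers 1, and of 12 hindbrain markers 1 below and 1 above, with median interactions of 0.02, -0.12 and 0.08. None passed in the mean of the regions among 10 markers of choroid plexus (median 0.03), 12 of meninges (-0.10), 9 of olfactory bulb (0.18), 7 of pituitary (0.07) and 4 measured of 13 listed of blood (0.08). The choroid plexus makes the cerebrospinal fluid, and the median interaction of its markers was -0.77 in forebrain, 1.26 in hindbrain and -0.29 in whole brain, so opposite signs cancelled in the mean. At an unadjusted p under 0.05, 9 of the 10 passed in forebrain (7.6% of all clusters, in either direction) and 6 in hindbrain (4.23%). Ttr, transthyretin, was -0.77 in forebrain and 2.30 in hindbrain. For the olfactory bulb markers the medians were 0.98, 0.01 and -0.22 in the same order, with 5 of 9 passing in forebrain and 1 in hindbrain. In the mean of the regions 4 olfactory bulb markers passed without DD658, 2 without BB686, and 1 without DD656 or DD657, and 1 choroid plexus marker passed without BB708. The part of these tissues in the interactions of other genes was not tested.

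Other response lists held fewer members with a strain difference. Of 18 chaperones and genes of the unfolded protein response, 4 had an interaction above 0 at an unadjusted p under 0.05 (4.08% of all clusters): Dnajb1, a partner of HSP70 (0.21), Hsp90b1, the chaperone of the endoplasmic reticulum (0.16), Herpud1, which acts in protein degradation there (0.15), and Atf4, the transcription factor of the integrated stress response (0.15). The count was 8 without BB707, 2 without BB686, BB701, BB708 or DD657, and 1 without DD658 or DD678. The median difference was -0.06 in B6 and 0.03 in NOD, and none was called. Of 27 genes of sterol and fatty acid synthesis, 4 were below 0 at that threshold (3.12% of all clusters): Fasn, fatty acid synthase (-0.22), Srebf2, the transcription factor of cholesterol synthesis (-0.19), and the cholesterol enzymes Lss (-0.17) and Dhcr7 (-0.15). The list median was -0.03, and the count was 2 without BB686, DD659 or DD676, and 1 on the 1.0ST arrays (1.49% of all clusters there), where that of the chaperones was 2 (2.64%).

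In the remaining response lists 0 to 3 members passed at an unadjusted p under 0.05, and shares of 4.08% above 0 and 3.12% below 0 over all clusters amount to close to 1 member per direction in lists of 16 to 33 genes, so the members below are given as values. Among 33 immediate early genes, which neurons induce within minutes of activity, Npas4 passed alone, with 0.12 in B6 and -0.42 in NOD, an interaction of -0.54 (SE 0.22), and not without BB702, BB707, DD657, DD677 or DD678. The median difference of that list was 0.11 in B6 and 0.12 in NOD, and its median interaction 0.01. Of 20 genes of the circadian clock, Nfil3 (0.27) and Cry1 (0.17), both repressors of transcription, passed, and with the hour of kill as a covariate their interactions were 0.26 and 0.16. Cry1 rose in NOD (difference 0.26, FDR = 0.0368). Of 16 neuropeptides, Gal, galanin (0.30), and Oxt, oxytocin (0.32), were above 0 and Crh, the releasing hormone of the stress axis (-0.21), below 0, and none was called in either strain. Of 23 genes of interferon and acute phase responses, Ccl2, a chemokine of monocytes (0.25), and Il1r1, the interleukin-1 receptor (0.44), were above 0, and Ccl2 was -0.04 on the 1.0ST arrays. Of 20 genes of blood cell formation, fixed because clozapine can cause agranulocytosis, Cebpa (0.20) and Gata1 (0.13) were above 0 and Spi1 (-0.28) below. Nr1i2, the pregnane X receptor (0.12), was the member that passed among 22 genes of drug metabolism and efflux, and 0 passed among 20 genes of fuel use and insulin signalling, where Pdk4 (0.29, SE 0.16) had the largest interaction of the 3 with the smallest p. The levels of Gata1 (3.964 to 4.155 over the mice), Ccl2 (3.846 to 4.224) and Nr1i2 (4.094 to 4.317) were low, against array medians of 6.28 to 6.61. For the neuropeptide, clock, blood cell and drug metabolism lists, leaving out single mice moved these counts of 1 or 2 to between 0 and 4, with the immune list between 1 and 4.

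Some differences between clozapine and vehicle mice were of close size in both strains. For clozapine averaged over the strains 88 clusters were called (0.311% of those tested). Among the 10 genes with the smallest p there, 3 had an interaction that did not pass an unadjusted p under 0.05. Nrp1, a receptor of semaphorins and VEGF, was 8.39, 8.43, 8.44 and 8.58 in B6 Cloz and 8.76, 8.72, 8.66 and 8.65 in B6 Veh, and 8.45, 8.67, 8.37 and 8.49 in NOD Cloz and 8.77, 8.76, 8.88 and 8.75 in NOD Veh, without overlap in either strain. It fell by 0.27 on average (FDR = 0.0151), with an interaction of -0.06 (95% interval -0.23 to 0.11). The cluster of the microRNA gene Mir151 fell by 0.27 (FDR = 0.0151), with -0.28 in B6, -0.26 in NOD and an interaction of 0.02 (95% interval -0.14 to 0.19). On the 1.0ST arrays of the same RNA the Mir151 difference was -0.20 in B6 and -0.007 in NOD, an interaction of 0.20, so its close size was seen on the 1.1ST arrays alone of the 2 formats. Nt5e, the enzyme that makes adenosine from AMP, rose by 0.36 (FDR = 0.0151), with 0.30 in B6 and 0.43 in NOD. Its interaction was 0.13 (95% interval -0.11 to 0.36), larger in size than the third quartile of all clusters, 0.109. For these 3 the intervals leave room for a difference between the strains of up to 0.36 in size. The other 7 of the 10 genes with the smallest p were Cdkn1a, Trp53inp1, Pmaip1, Map3k6, Smim3, Dmrta1 and Gpr84, whose interactions passed that threshold. The NOD difference was the larger one in size for each of these 7, and also for Nrp1 and Nt5e. The count of 88 was 569 without DD675, 170 without BB702, 42 without BB707, 33 without BB685, 25 without DD659, 23 without DD676, 19 without DD658, 13 without DD677, 12 without DD678, 11 without DD656 and 0 without BB687 (B6 Veh), and with the hour of kill as a covariate it was 0.

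In B6 alone the genes with the smallest p were Gpx6, Mir151, Drd2, Cstad and Hs3st3b1, each with an FDR of 0.743. Cstad differed by 0.33 in B6 and 0.06 in NOD, an interaction of -0.27 (SE 0.09). Hs3st3b1, a heparan sulfate sulfotransferase, differed by -0.18 in B6 and 0.01 in NOD, and its interaction of 0.19 was -0.08 on the 1.0ST arrays. Among genes past an unadjusted p of 0.05, the largest interactions below 0 besides Pln and Cd180 were in Mir376b (-0.55), Htr5b, a serotonin receptor (-0.55), and Npas4. Htr5b ran from -0.09 in forebrain to -1.32 in hindbrain.

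No transcript was called for the interaction within a single region. At an unadjusted p under 0.05, limma found 2151 clusters in forebrain, 1198 in hindbrain and 711 in whole brain, of which 42.3%, 57.3% and 62.9% were higher in NOD, and the smallest FDR was 0.463, 0.949 and 0.0711. The median SE of an interaction was 0.13 in each region, against 0.0764 for the mean of the regions. Whole brain, the region with the fewest of these, shares its mice but not its hemisphere with the other regions. Rnf125 was 0.68 in forebrain, 0.81 in hindbrain and 0.87 in whole brain, Pmaip1 0.52, 0.82 and 0.82, and Fkbp5 0.48, 0.59 and 0.64, so these had a positive interaction in all 3. One sign in the 3 regions was part of a rule by which Rnf125 and Pmaip1 were named. Their agreement over regions is therefore not independent of that choice. Differences between regions in the interaction were not tested.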

How the data were processed

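The samples were 48 arrays of the 1.1ST format and 48 of the 1.0ST format on the same RNA. The deposited values are log2 intensities that, per the submitters' processing notes, came from Affymetrix Expression Console 1.1, with robust multi-array averaging as the authors' methods give it. The genome build of the annotation is not given in the sources used here. From the deposited values 1 mean per mouse was computed and fitted with limma 3.58.1 (lmFit and eBayes, R 4.3.3, statmod 1.5.0, tested on simulated data), the 4 group means being the coefficients. The FDR was the share of null transcripts, taken as 2 times the share of p above 0.5, times the number tested and p, divided by the number called. No filter on low values was used. Of 28310 clusters, 21207 had 1 symbol, 1867 several and 5236 none here. Symbols were updated through gene IDs to RefSeq (GRCm38.p6), which gave 18807 genes, and a gene with several clusters (1295) was read from the one with the highest mean.

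Named genes were those called for the interaction, the 10 per direction with the smallest p and one sign in the 3 regions and on both formats, the 10 with the smallest p averaged over strains, the 5 with the smallest p in each strain, the 5 per direction with the largest interaction at an unadjusted p under 0.05, and up to 3 or all passing members of each list, with members of the 13 response and 12 marker lists otherwise described by counts. The members and lists were chosen with earlier results of these data known. Alternatives were the 1.0ST arrays, single regions, centring, the hour of kill, litter size, models of 48 arrays with the mouse as a block, without it or with 5 surrogate variables, other adjustments and filters, and leaving out each mouse. Arrays of one mouse deviated together by a mean correlation of 0.0539 over 48 pairs, against -0.0034 over 720 pairs of different mice.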

Additional observations from a re-analysis of the deposited data

Results flagged for a closer look

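In 22 of 340 groups of 4 mice over the 85 named genes, 1 mouse stood apart from the other 3 (log2 intensity): its gap to the nearest mouse, divided by the range of the group, was above Dixon's 95% critical value for 4 values. Chance alone gives such a gap in 1 in 20 groups.

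Mouse BB685 stood apart for Map3k6 in B6 Cloz (6.55 against 6.25 to 6.29, gap 0.848) and Fkbp5 in B6 Cloz (9.06 against 8.13 to 8.29, gap 0.832). Mouse BB687 stood apart for Foxp1 in B6 Veh (9.47 against 9.32 to 9.34, gap 0.854). Mouse BB701 stood apart for Mir151 in B6 Cloz (4.83 against 4.70 to 4.71, gap 0.893) and Htr5b in B6 Cloz (6.45 against 6.06 to 6.11, gap 0.873). Mouse BB703 stood apart for Insr in B6 Cloz (9.48 against 9.40 to 9.41, gap 0.914). Mouse BB707 stood apart for Crh in B6 Veh (5.52 against 5.65 to 5.67, gap 0.864). Mouse BB708 stood apart for Rnf125 in B6 Veh (6.40 against 6.61 to 6.65, gap 0.845), Drd2 in B6 Veh (8.45 against 8.21 to 8.24, gap 0.872), Mir151 in B6 Veh (4.91 against 5.04 to 5.05, gap 0.944) and Ppp1r17 in B6 Veh (5.21 against 4.54 to 4.58, gap 0.935). Mouse DD656 stood apart for Nfil3 in NOD Veh (6.40 against 6.29 to 6.30, gap 0.884), Herpud1 in NOD Veh (9.40 against 9.31 to 9.32, gap 0.877) and Rarb in NOD Veh (8.45 against 8.88 to 8.92, gap 0.922). Mouse DD657 stood apart for Map3k6 in NOD Veh (5.91 against 5.52 to 5.58, gap 0.853) and Ppp1r17 in NOD Veh (5.04 against 4.57 to 4.63, gap 0.875). Mouse DD659 stood apart for Nrp1 in NOD Veh (8.88 against 8.75 to 8.77, gap 0.836) and Spi1 in NOD Veh (6.29 against 6.06 to 6.10, gap 0.83). Mouse DD675 stood apart for Gpx6 in NOD Cloz (4.59 against 4.42 to 4.44, gap 0.922) and Nfil3 in NOD Cloz (6.34 against 6.59 to 6.64, gap 0.835). Mouse DD677 stood apart for Lss in NOD Veh (8.43 against 8.53 to 8.54, gap 0.894) and Insr in NOD Veh (9.42 against 9.45, gap 0.897).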

How the results depend on the processing

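The count of clusters called for the interaction was 0 with 1 value per mouse, and 0 on the 1.0ST arrays, with arrays centred, with the hour of kill or litter size in the model, with forebrain and hindbrain averaged, within each region, with Benjamini-Hochberg adjustment, for clusters with a mean above 5 or with 1 gene symbol, and with a trended, robust variance. In models of the 48 arrays it was 2 with the mouse as a replicate block, 5 without the block and 3 with 5 surrogate variables and the block, and 2 with the block in 46 arrays, a setting chosen after seeing the data that leaves out 2 arrays with low correlations. In the same order the count was 3, 4, 5 and 4 for clozapine in B6, 831, 1089, 371 and 528 in NOD, and 2.5%, 3.1%, 2.49% and 2.18% of clusters averaged over the strains, against 0.311%. The replicate number is the mouse, so the pairing is that of one animal, and the block lowered the NOD count from 1089 to 831. The NOD count was also 97 on the 1.0ST arrays, 290 with arrays centred, 30 for the mean of forebrain and hindbrain, 0, 9 and 6 within forebrain, hindbrain and whole brain, 2 with the hour of kill and 10 with litter size. The averaged share was 0.0671%, then 0%, 0.00353% and 0.0212% within the regions, 0% with the hour and 0.0848% with litter size. With 1 mouse left out the counts lay between 0 and 1 for the interaction and for B6, 9 and 758 for NOD, and 0% and 2.01% of clusters averaged. The cause was not tested.

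Of the interactions of named genes under the settings other than left-out mice, 265 no longer passed the unadjusted threshold with the same sign and 13 turned. On the 1.0ST arrays these were Hs3st3b1 (-0.08) and Ccl2 (-0.037); with surrogate variables Gabra6 (-0.24), Cbln3 (-0.23), Ppp1r17 (-0.01) and Cnpy1 (-0.009); in forebrain Cry1 (-0.014) and Crh (0.107); and in whole brain Atf4 (-0.004), Rasd2 (0.139), Pde1b (0.036), Foxp1 (0.059) and Bcl11b (0.025). With 1 mouse left out 187 interactions no longer passed and 1013 kept their side. The precision is limited by 4 mice per group.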
